A study of Homo sapiens with 4 samples.

Results

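The genes described here are 60 genes of mitosis and the kinetochore, listed by name for their role in cell division; the list was drawn up with earlier results of these data known. They were looked up by symbol among the 8727 genes of the authors' deposited table, and 41 of the 60 were found there. The libraries come from HepG2, an established human line that the labels call hepatoblastoma. One group of 2 libraries came from cells given the solvent DMSO, and the other group of 2 libraries from cells exposed for 24 h to isoginkgetin at 20 µM. This compound, a biflavonoid of ginkgo leaves, is known to block splicing of pre-mRNA; the labels name no other change to the cells.

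The authors' deposited table holds, for each gene, the normalized count averaged over libraries, the log2 fold change, the standard error (SE) of that change and an adjusted p, and lists only genes whose adjusted p is under 0.05. Values of single libraries were not analysed here, so neither the total count per library nor the overlap of the groups can be shown, and depth per library is unknown. "Lower" and "higher" stand for negative and positive log2 fold changes that passed this threshold, read as isoginkgetin over DMSO. Its header leaves the numerator unnamed, and the opposite order would turn every direction given here. No label says that the replicates were separate cultures. The p-values thus set the difference between the groups against a scatter of these libraries that may be only technical. Of 17 hepatocyte and HepG2 markers, 14 are in the authors' deposited table, with mean normalized counts from 442 (TTR, transthyretin) to 157429 (APOB, apolipoprotein B), and 13 were lower and 1 was higher. Of 20 markers of fibroblasts, leukocytes and endothelium, the authors' deposited table holds 4 (PDGFRB, LYZ, PECAM1 and CLDN5), all lower. LYZ had a mean normalized count of 15328, and the others ran from 14.2 (CLDN5) to 128.9 (PECAM1). The part of these markers in the results was not tested.

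Cells enter mitosis when the kinase CDK1, bound to cyclin A or cyclin B, is switched on by CDC25 phosphatases. Kinetochores, protein assemblies built on centromeric chromatin, then attach chromosomes to spindle microtubules while the spindle checkpoint holds back the anaphase-promoting complex. Once CDC20 activates that complex, securin and cyclin B are destroyed, separase cuts cohesin, and the central spindle and a contractile ring divide the cell. Most of these genes are transcribed in G2 and M phase, driven by the MuvB complex with MYBL2 (B-Myb) and FOXM1 and by NF-Y, and repressed in resting cells by the DREAM complex. MuvB binds a short promoter element called the cell cycle genes homology region (CHR), and NF-Y binds CCAAT boxes.

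The promoters of 6 members are shown. They include those of the 3 members with the most negative log2 fold changes (HMMR, ASPM, NCAPD2) and of the lowest member of the kinetochore group (CENPE). The others are those of the member with the most positive change (MAD2L1) and of the anaphase activator CDC20, which is outside the table. Each is the RefSeq window of 300 bases, from 250 before to 50 after the annotated transcription start, 5′ to 3′ on the gene's strand. Capitals mark the CHR letters TTTGAA, the CHR variant TTTAAA and CCAAT on either strand, where runs in capitals may hold 2 overlapping or adjoining matches.
HMMR, GRCh38.p14 chr5:163460382-163460681, plus strand: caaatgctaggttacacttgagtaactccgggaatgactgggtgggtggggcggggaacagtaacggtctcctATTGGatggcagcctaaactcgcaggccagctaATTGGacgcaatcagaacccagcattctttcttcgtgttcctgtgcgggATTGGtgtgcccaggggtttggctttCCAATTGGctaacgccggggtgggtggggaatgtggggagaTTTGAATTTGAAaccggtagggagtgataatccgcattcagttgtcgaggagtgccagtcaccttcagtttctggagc
ASPM, GRCh38.p14 chr1:197146620-197146919, minus strand: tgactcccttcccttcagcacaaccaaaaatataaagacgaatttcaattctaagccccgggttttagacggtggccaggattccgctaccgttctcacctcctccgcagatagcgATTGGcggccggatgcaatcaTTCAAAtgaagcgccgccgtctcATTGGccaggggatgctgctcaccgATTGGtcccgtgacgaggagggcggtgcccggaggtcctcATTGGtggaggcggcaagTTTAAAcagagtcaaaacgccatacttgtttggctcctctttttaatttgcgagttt
NCAPD2, GRCh38.p14 chr12:6493852-6494151, plus strand: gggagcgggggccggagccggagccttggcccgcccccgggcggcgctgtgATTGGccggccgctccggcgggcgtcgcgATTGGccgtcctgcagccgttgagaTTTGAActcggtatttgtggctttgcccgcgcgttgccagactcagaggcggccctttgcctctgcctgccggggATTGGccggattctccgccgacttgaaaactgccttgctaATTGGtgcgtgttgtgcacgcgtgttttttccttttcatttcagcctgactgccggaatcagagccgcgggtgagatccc
CENPE, GRCh38.p14 chr4:103198294-103198593, minus strand: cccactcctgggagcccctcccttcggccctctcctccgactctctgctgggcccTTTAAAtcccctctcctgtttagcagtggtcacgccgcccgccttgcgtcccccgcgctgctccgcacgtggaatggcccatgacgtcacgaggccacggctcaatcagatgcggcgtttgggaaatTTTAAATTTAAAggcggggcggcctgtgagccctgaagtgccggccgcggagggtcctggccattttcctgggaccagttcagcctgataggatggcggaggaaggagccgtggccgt
MAD2L1, GRCh38.p14 chr4:120066799-120067098, minus strand: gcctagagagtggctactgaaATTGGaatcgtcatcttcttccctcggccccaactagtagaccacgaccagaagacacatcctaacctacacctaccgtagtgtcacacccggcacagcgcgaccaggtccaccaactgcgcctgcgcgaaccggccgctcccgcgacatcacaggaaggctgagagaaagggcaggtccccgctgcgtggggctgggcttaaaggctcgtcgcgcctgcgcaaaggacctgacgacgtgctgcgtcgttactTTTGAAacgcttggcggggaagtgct
CDC20, GRCh38.p14 chr1:43358731-43359030, plus strand: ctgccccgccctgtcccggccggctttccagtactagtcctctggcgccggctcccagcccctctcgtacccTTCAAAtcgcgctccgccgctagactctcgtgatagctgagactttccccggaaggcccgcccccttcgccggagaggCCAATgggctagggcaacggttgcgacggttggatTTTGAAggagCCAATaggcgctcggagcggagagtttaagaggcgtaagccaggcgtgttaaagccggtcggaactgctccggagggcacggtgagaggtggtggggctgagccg

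HMMR's window holds 2 adjoining CHR matches and 5 CCAAT matches, of which 1 pair overlaps. NCAPD2 has 1 CHR and 4 CCAAT matches, and ASPM has the same numbers plus 1 match to the variant. CENPE has neither TTTGAA nor CCAAT in the window but 3 matches to the variant. The window of MAD2L1, which was higher, also holds 1 CHR and 1 CCAAT match, and that of CDC20 holds 2 of each.

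RefSeq windows were found for 51 of the 60 members, 66 windows in all. TTTGAA occurred in 40 of these 66 windows (60.6%), against 15.2% of all 35116 promoter windows of the same length. CCAAT occurred in 45 of the 66 (68.2%), against 34.6% of all windows, and TTTAAA in 17 (25.8%) against 12.2%. The E2F-type letters TTTCCCGC, TTTCGCGC, TTTGCCGC and TTTGGCGC were together found in 5 of the 66 windows (7.58%) and in 3.31% of all windows. Counted once per gene, they were in 4 of 51 members (7.84%). That lay near the 6.93% of other lower and 6.21% of other higher genes of the authors' deposited table. All searches covered both strands, and the variant was added after the windows were seen. Windows of the same gene can overlap, as for PTTG1 and AURKB, and a site they share was counted once per window. Matches to TTTGAA in the members' windows clustered near the start, with a median position of −28 and quartiles at −69 and −3 bases. CCAAT matches lay further upstream, with a median of −82 and quartiles at −112.8 and −54. Counting a gene once for any of its windows, 44 of 51 members carried TTTGAA or TTTAAA, and 29 carried both TTTGAA and CCAAT. AURKB, BUB1, CCNA2, CENPK, KIF22, MYBL2 and SPC24 carried neither CHR form in these windows.

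**Figure D1:**
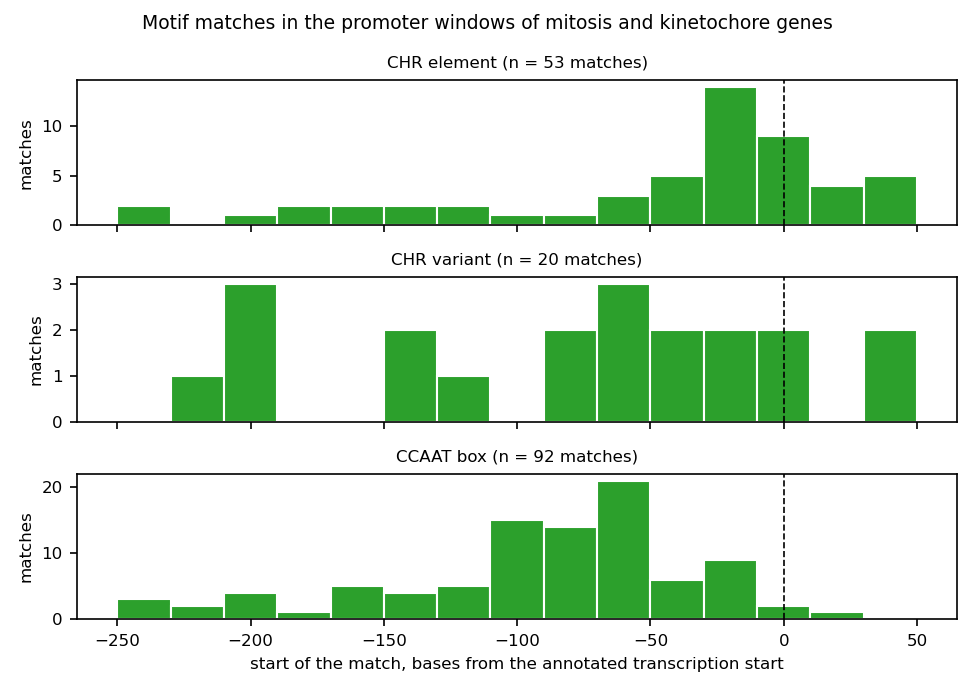
Number of motif matches (y axis) by distance in bases from the annotated transcription start (x axis, dashed line at 0) in the 66 promoter windows of 51 mitosis and kinetochore genes. The 53 CHR matches centre close to the start, the 92 CCAAT matches further upstream, and the 20 matches to the CHR variant are spread over the window. A site shared by overlapping windows of a gene counts once per window.

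TTTGAA was found in 25 of 34 lower members with a window (73.5%), in 1 of 2 higher ones and in 11 of 15 members outside the table (73.3%). Among all other genes with a window, 15.0% of the 2944 lower and 12.8% of the 3077 higher genes had it. CCAAT was found in 25 of 34 lower members (73.5%), in 2 of 2 higher ones and in 13 of 15 outside the table (86.7%). Among the other genes, 43.0% of the lower and 42.8% of the higher had CCAAT. A match describes letters in the window and says nothing of binding in these cells.

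Most mitosis and kinetochore genes in the authors' deposited table were lower, and by moderate amounts. Of the 60 members 37 (61.7%) were lower, where 21.1% of the 20024 genes tested were lower. Only 4 members (6.67%) were higher, AURKA, PTTG1, BUB3 and MAD2L1, where 22.4% of all tested genes were higher, and AURKA turns negative when values are centred on the table's median. In either direction 68.3% of the members passed the threshold, against 43.6% of tested genes. The median log2 fold change of the 41 members was −0.54, beside 0.21 for all 8727 genes in the authors' deposited table. Genes with few reads seldom pass such a test, and the members' mean normalized counts ran from 338.3 to 11684. Among the 5616 genes of the authors' deposited table in that range, 47.5% of rows were lower, beside 90.2% of the 41 members' rows. In libraries of whole cultures, fewer cells in G2 and M phase and less of these transcripts per cell cannot be told apart.

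On the deposited scale 5 members were lower by 2-fold or more (HMMR, ASPM, NCAPD2, CENPE and KIF15), a share of 8.33% that lies close to the 7.43% of all genes tested. Centred on the table's median, an alternative added after the data were seen, 12 members passed that limit, the others being SPC24, TOP2A, KIF14, AURKB, ESPL1, MYBL2 and ANLN, and so did 10.4% of all genes tested. None was higher by 2-fold, and the largest increase, that of MAD2L1, stood at a linear ratio of 1.41 in the authors' deposited table.

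**Figure D2:**
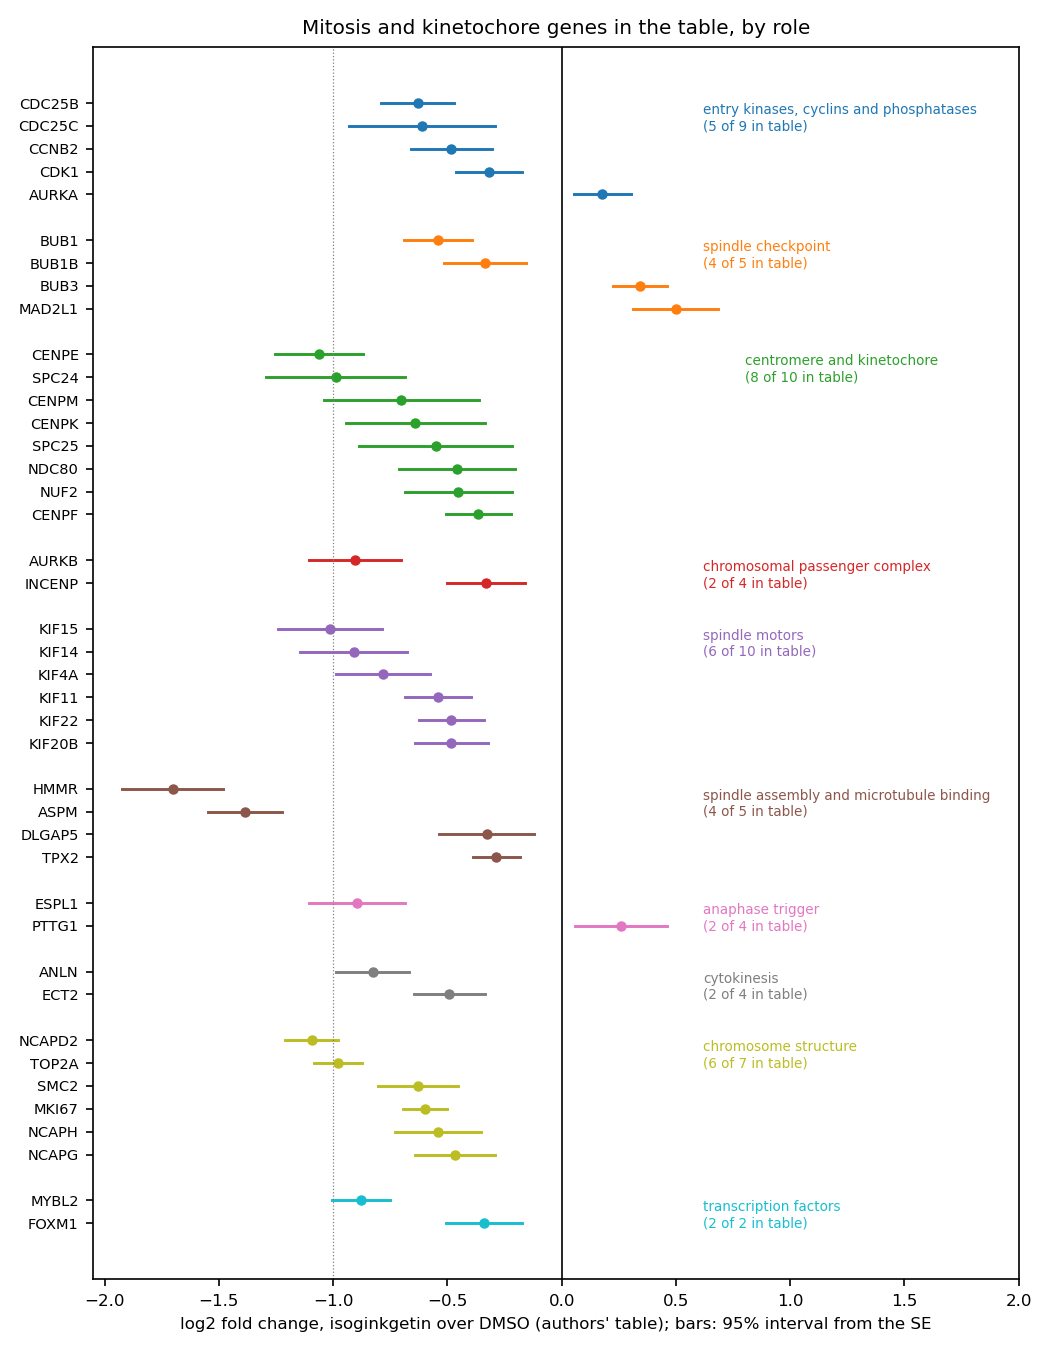
Log2 fold change (x axis, isoginkgetin over DMSO) of the 41 mitosis and kinetochore genes in the authors' deposited table, grouped by role, with 95% intervals computed from the SE; the dotted line marks a 2-fold decrease. The 4 points to the right of 0 are AURKA, BUB3, MAD2L1 and PTTG1, and HMMR lies furthest left at −1.70. Once values are centred on the table's median, AURKA moves to −0.04 with an interval that holds 0.

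Outside the table are 19 members: CCNA2, CCNB1, PLK1, PLK4, TTK, CENPA, CENPN, BIRC5, CDCA8, KIF18A, KIF20A, KIF23, KIF2C, NUSAP1, CDC20, UBE2C, PRC1, RACGAP1 and SMC4. Among them are many of the best known mitotic genes, including the cyclins A2 and B1, the kinase PLK1 and the anaphase activator CDC20. No value is held for them, so neither their level nor the direction of any change is known here. Among the 2348 genes of the authors' deposited table with mean normalized counts from 1000 to 3000, the smallest absolute log2 fold change was 0.16 and the median SE 0.09. Between 300 and 1000 the smallest was 0.24.

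**Figure D3:**
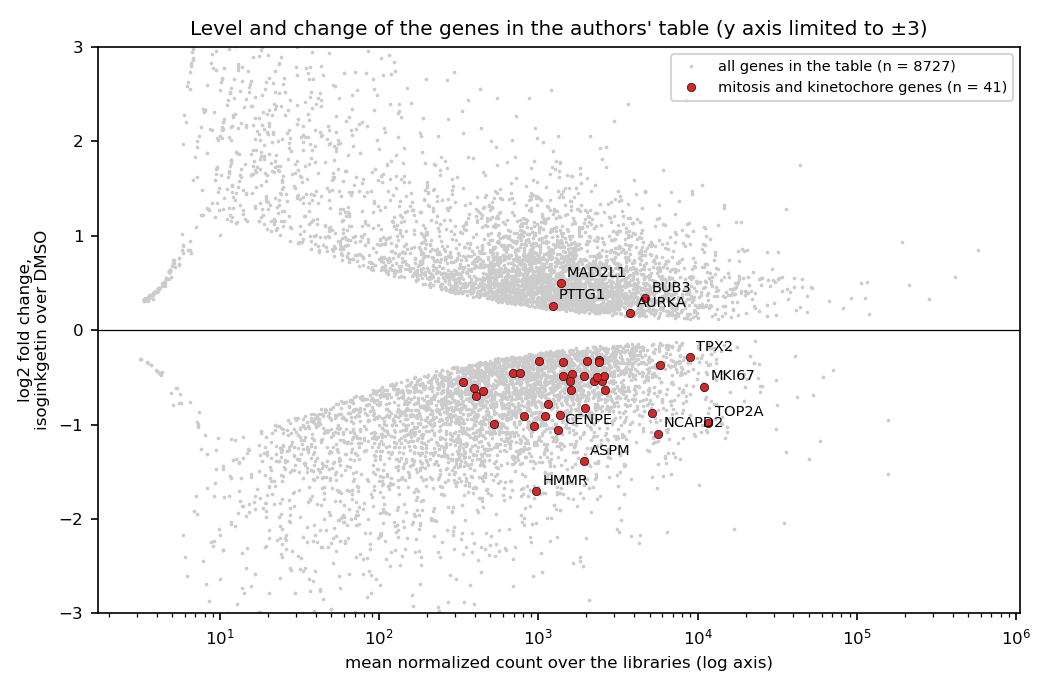
Log2 fold change (y axis, limited to ±3) against the mean normalized count (x axis, log scale) for the 8727 genes of the authors' table (grey) and the 41 mitosis and kinetochore genes in it (red). The members lie at counts from 338.3 to 11684, mostly below 0, and the empty band around 0 narrows as counts rise.

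Of the 9 members grouped as triggers of entry into mitosis, those in the table were lower, except for AURKA, whose sign depends on centring. CDC25B and CDC25C are phosphatases that remove the inhibitory phosphates from CDK1. They had log2 fold changes of −0.63 (SE 0.08, adjusted p 3.31e-14) and −0.61 (SE 0.16) by the authors' deposited table. Their difference was −0.02, with a 95% interval from −0.38 to 0.34, so they could not be told apart. CDC25A, of the same family but counted in the wider lists, was higher at 0.52 (SE 0.11), and at 0.31 when centred on the table's median. CDK1, the kinase itself, was at −0.32 (SE 0.07, adjusted p 4.84e-05) and its partner cyclin CCNB2 at −0.48 (SE 0.09) by the authors' deposited table. AURKA, the centrosomal kinase that matures the spindle poles, was at 0.18 (SE 0.06, adjusted p 0.0132) by the authors' deposited table. Centred on the table's median AURKA was at −0.04, with a 95% interval that held 0. In all, 4 of 9 genes of this group were lower and 1, AURKA, was higher without centring, and CCNA2, CCNB1, PLK1 and PLK4 are outside the table.

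The spindle checkpoint divided. BUB1, a kinase that recruits the checkpoint to the kinetochore, was at −0.54 (SE 0.08, adjusted p 4.77e-12) by the authors' deposited table, and BUB1B, which encodes the checkpoint protein BUBR1, at −0.34 (SE 0.09). MAD2L1, whose product MAD2 binds and restrains CDC20, was at 0.499 (SE 0.09, adjusted p 4.90e-07) by the authors' deposited table. BUB3, the adaptor that carries BUB1 and BUBR1 to the kinetochore, was at 0.34 (SE 0.06) there. MAD2L1 exceeded BUB1 by 1.04 on the log2 scale (95% interval 0.80 to 1.28), and BUB3 exceeded BUB1 by 0.89 (0.70 to 1.07). Both genes stayed above 0 when centred on the table's median. TTK, the kinase MPS1 at the head of the checkpoint, is outside the table.

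Every listed kinetochore gene that passed was lower, 8 of 10, with a median log2 fold change of −0.60 in the authors' deposited table. CENPE, a very large motor that carries chromosomes to the spindle equator, stood lowest at −1.06 (SE 0.10, adjusted p 1.25e-26) by the authors' deposited table. CENPF, a large protein of the outer kinetochore, stood highest at −0.36 (SE 0.07, adjusted p 1.83e-06), and the difference between them was −0.70 (95% interval −0.94 to −0.46). CENPM and CENPK, of the inner complex that rests on CENP-A chromatin, were at −0.70 (SE 0.17) and −0.64 (SE 0.16) by the authors' deposited table. CENPA, the centromeric histone, and CENPN, which binds it, are outside the table.

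All 4 subunits of the NDC80 complex, the rod that grips microtubules, were lower. SPC24 was at −0.99 (SE 0.16), SPC25 at −0.55 (SE 0.17), NDC80 at −0.46 (SE 0.13) and NUF2 at −0.45 (SE 0.12) by the authors' deposited table. NDC80 and NUF2, which pair at the microtubule end of the rod, differed by −0.01 (95% interval −0.35 to 0.34). SPC24 lay below NDC80 by −0.53 (−0.93 to −0.13). Against SPC25, its partner at the chromosome end, the difference of −0.44 had an interval that reached 0 (−0.89 to 0.02).

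The chromosomal passenger complex, which corrects wrong attachments and later helps to cleave the cell, had 2 of 4 genes in the table. AURKB, its kinase, was at −0.91 (SE 0.10, adjusted p 4.98e-18) and INCENP, its scaffold, at −0.33 (SE 0.09, adjusted p 0.000446) by the authors' deposited table. The kinase was thus lower than its scaffold by −0.58 (95% interval −0.84 to −0.31). It also parted from its relative: AURKA exceeded AURKB by 1.08 on the log2 scale (0.85 to 1.32), the opposite signs holding only without centring, since AURKA turns to −0.04 with it. BIRC5 (survivin) and CDCA8 (borealin), the remaining subunits, are outside the table.

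Spindle motors were lower in 6 of 10 cases, with a median log2 fold change of −0.66 in the authors' deposited table. KIF15, which helps to keep spindle poles apart, was at −1.02 (SE 0.12, adjusted p 5.98e-18) by the authors' deposited table. KIF11 (Eg5), the main motor that pushes the poles apart, was at −0.54 (SE 0.07, adjusted p 8.65e-13) there, and KIF15 lay below it by −0.47 (95% interval −0.74 to −0.20). KIF14, a motor needed in cytokinesis, was at −0.91 (SE 0.12), and the chromokinesin KIF4A, which works on chromosome arms and the central spindle, at −0.78 (SE 0.10) by the authors' deposited table. KIF22, another chromokinesin, and KIF20B stood level at −0.48 each (SE 0.07 and 0.08) by the authors' deposited table, with a difference of 0.00 (−0.21 to 0.21). KIF18A, KIF20A, KIF23 and KIF2C are outside the table.

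Genes of spindle assembly spanned the widest range. HMMR, a protein that binds hyaluronan and spindle poles, had the most negative log2 fold change of all members at −1.70 (SE 0.11, adjusted p 1.26e-50) by the authors' deposited table, a linear ratio of 0.307. ASPM, which holds microtubule minus ends at the poles, followed at −1.39 (SE 0.08, adjusted p 1.84e-61), a ratio of 0.382 in the authors' deposited table. HMMR lay below ASPM by −0.32 (95% interval −0.59 to −0.04). DLGAP5, a stabiliser of kinetochore fibres, was at −0.33 (SE 0.11) and TPX2, which activates AURKA on the spindle, at −0.29 (SE 0.05, adjusted p 4.04e-07) by the authors' deposited table. TPX2 had the smallest decrease among the 37 lower members, and ASPM lay below it by −1.10 (−1.29 to −0.91). NUSAP1 is outside the table.

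Separase and securin differed. ESPL1, the protease separase that cuts cohesin, was at −0.90 (SE 0.11, adjusted p 3.38e-16) by the authors' deposited table. PTTG1, the securin that holds separase inactive, was at 0.26 (SE 0.10, adjusted p 0.0248) by the authors' deposited table, and exceeded ESPL1 by 1.16 (95% interval 0.86 to 1.45). Centred on the table's median PTTG1 was at 0.05, less than its SE, so its own increase depends on that scale, whereas the difference from ESPL1 does not. CDC20 and UBE2C, which direct and feed the anaphase-promoting complex, are outside the table.

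In cytokinesis 2 of 4 genes passed, both lower. ANLN (anillin), the scaffold of the contractile ring, was at −0.83 (SE 0.08, adjusted p 2.42e-23) by the authors' deposited table. ECT2, the exchange factor that activates RhoA at the equator, was at −0.49 (SE 0.08, adjusted p 2.31e-09) there. ANLN lay below ECT2 by −0.34 (95% interval −0.56 to −0.11). PRC1 and RACGAP1, the builders of the central spindle, are outside the table.

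Set side by side, 4 roles gave these medians in the authors' deposited table: −0.48 for the 5 entry kinases, cyclins and phosphatases, −0.60 for the 8 kinetochore genes, −0.66 for the 6 motors and −0.66 for the 2 cytokinesis genes. The ranges of all 4 roles overlapped, and no difference between roles was tested. Lower genes made up 44.4% of the entry group, 80% of the kinetochore group, 60% of the motors and 50% of the cytokinesis group, beside 21.1% of all genes tested.

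Genes of chromosome structure were lower in 6 of 7 cases. NCAPD2, a subunit of condensin I, which compacts mitotic chromosomes, was at −1.10 (SE 0.06, adjusted p 1.57e-75) by the authors' deposited table. The other condensin I subunits NCAPH and NCAPG were at −0.54 (SE 0.10) and −0.47 (SE 0.09, adjusted p 6.70e-07), and SMC2, the ATPase core shared with condensin II, at −0.63 (SE 0.09) by the authors' deposited table. NCAPD2 lay below each of them, by −0.55 from NCAPH (95% interval −0.77 to −0.33), −0.63 from NCAPG (−0.84 to −0.42) and −0.47 from SMC2 (−0.67 to −0.26). NCAPG and NCAPH differed by 0.08 (−0.18 to 0.33). TOP2A, the topoisomerase that untangles sister chromatids, was at −0.98 (SE 0.05, adjusted p 4.93e-71) and MKI67, the Ki-67 coat of mitotic chromosomes and a common marker of dividing cells, at −0.60 (SE 0.05, adjusted p 5.27e-32) by the authors' deposited table. SMC4, the partner of SMC2, is outside the table.

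Both transcription factors of the late cell cycle were lower. MYBL2 was at −0.88 (SE 0.07, adjusted p 3.59e-40) and FOXM1 at −0.34 (SE 0.08, adjusted p 0.000178) by the authors' deposited table. MYBL2 lay below FOXM1 by −0.54 (95% interval −0.75 to −0.33). In all, 31 such pairs of genes were compared, chosen after their values were seen. The interval left out 0 in 18 pairs, and it takes the errors of the 2 genes as independent although they share libraries.

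The wider lists of the same pathways, 200 genes without the members, had 84 lower (42%) and 46 higher (23%) in the authors' deposited table, beside 21.1% and 22.4% of all genes tested, so the share of higher genes lay near that of all genes. The remaining kinetochore and checkpoint genes had 19 lower (50%) and 6 higher (15.8%) of 38. CENPI, an inner kinetochore protein, was at −1.90 (SE 0.27) by the authors' deposited table, KNTC1, a part of the RZZ complex that brings dynein, at −1.58 (SE 0.10), and ZWINT, which links that complex to the kinetochore, at −1.14 (SE 0.09). In the other direction MIS12, of the outer kinetochore platform, was at 1.17 (SE 0.14), ZW10, a partner of KNTC1, at 0.79 (SE 0.12) and MAD2L1BP, which silences MAD2, at 0.47 (SE 0.13) by the authors' deposited table. Subunits of the RZZ complex thus differed in direction.

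Other mitotic kinases and regulators split nearly evenly, 11 lower (40.7%) and 10 higher (37.0%) of 27, beside 21.1% and 22.4% of all genes tested. PKMYT1, an inhibitory kinase of CDK1, was at −1.26 (SE 0.12), NEK9 at −1.14 (SE 0.10) and the phosphatase CDKN3 at −1.11 (SE 0.15) by the authors' deposited table. PLK2 (1.17, SE 0.15) and PLK3 (0.91, SE 0.11), Polo-like kinases known as stress-responsive genes, and LATS1 (0.87, SE 0.09), a Hippo pathway kinase, were higher in the authors' deposited table.

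Other motors and their regulators had 9 lower (47.4%) and 5 higher (26.3%) genes of 19, beside 21.1% and 22.4% of all genes tested. Their higher share lay near that of all genes. KIF24 was at −1.36 (SE 0.27), KIF18B at −0.60 (SE 0.09) and KIFC1, a minus-end motor that gathers poles, at −0.54 (SE 0.08) by the authors' deposited table. NDEL1 (0.74, SE 0.10) and NDE1 (0.37, SE 0.08), regulators of dynein, and the ciliary motor KIF3A (0.61, SE 0.16) were higher in the authors' deposited table. Among other cytokinesis genes 7 were lower (36.8%) and 6 higher (31.6%) of 19. That list includes septins, but no gene of the authors' deposited table carries a septin symbol, so whether they passed is not known. DIAPH3, an actin nucleator, was at −1.32 (SE 0.18), the citron kinase CIT at −1.20 (SE 0.11) and the abscission factor TSG101 at −1.02 (SE 0.11) by the authors' deposited table. SHCBP1 (0.82, SE 0.11), ARHGEF2 (0.50, SE 0.07) and CHMP2A (0.47, SE 0.12) were higher in the authors' deposited table.

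Spindle and centrosome genes had 18 lower (43.9%) and 6 higher (14.6%) of 41 in the authors' deposited table, beside 21.1% and 22.4% of all genes tested. After centring on the table's median they had 20 and 4. HAUS5, of the augmin complex, was at −0.88 (SE 0.13), SPAG5 at −0.86 (SE 0.10) and TUBG1, gamma-tubulin, at −0.85 (SE 0.08) by the authors' deposited table. HAUS2 (0.41, SE 0.12), RAN (0.28, SE 0.05) and CKAP2L (0.28, SE 0.12) were higher in the authors' deposited table, but centring left them at 0.20, 0.07 and 0.07, with 95% intervals that held 0. Cohesin and condensin II genes had 8 lower (50%) and 4 higher (25%) of 16, the higher share lying near that of all genes. ESCO2, which acetylates cohesin in S phase, was at −1.45 (SE 0.19) and its relative ESCO1 at 0.82 (SE 0.11) by the authors' deposited table. NCAPD3, the condensin II counterpart of NCAPD2, was at −1.03 (SE 0.09) there, and the difference between NCAPD2 and NCAPD3 was −0.06 (95% interval −0.28 to 0.15). NCAPG2, the condensin II counterpart of NCAPG, was at −0.59 (SE 0.09) by the authors' deposited table, 0.13 below NCAPG (−0.12 to 0.37). WAPAL (now WAPL), which releases cohesin, was at 0.43 (SE 0.07) and CDCA5 (sororin) at 0.27 (SE 0.08) by the authors' deposited table, of which CDCA5 went to 0.06 with centring. Of the 27 higher genes named from the wider lists and the replication list, 8 had a centred 95% interval that held 0 (HAUS2, RAN, CKAP2L, CDCA5, CDC26, NFYA, ORC4 and MAD2L1BP), and of the 27 lower ones 0 did.

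The anaphase-promoting complex had 3 lower (17.6%) and 5 higher (29.4%) genes of 17, close to the 21.1% and 22.4% of all genes tested. ANAPC16 was at −0.69 (SE 0.10), ANAPC5 at −0.36 (SE 0.06) and ANAPC2 at −0.34 (SE 0.11) by the authors' deposited table. ANAPC13 (0.63, SE 0.12), CDC26 (0.59, SE 0.23) and UBE2S (0.53, SE 0.09), the enzyme that lengthens the ubiquitin chain, were higher in the authors' deposited table. Of 24 MuvB, DREAM and E2F regulators 9 were lower (37.5%) and 4 higher (16.7%). The E2F factors E2F1 (−1.67, SE 0.10), E2F2 (−1.42, SE 0.13) and E2F7 (−1.40, SE 0.16) were lower in the authors' deposited table. E2F6, a repressor of the family, was at 0.93 (SE 0.10), CDKN1A, the CDK inhibitor p21, at 0.85 (SE 0.08) and NFYA, the regulatory subunit of NF-Y, at 0.34 (SE 0.10) by the authors' deposited table.

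**Figure D4:**
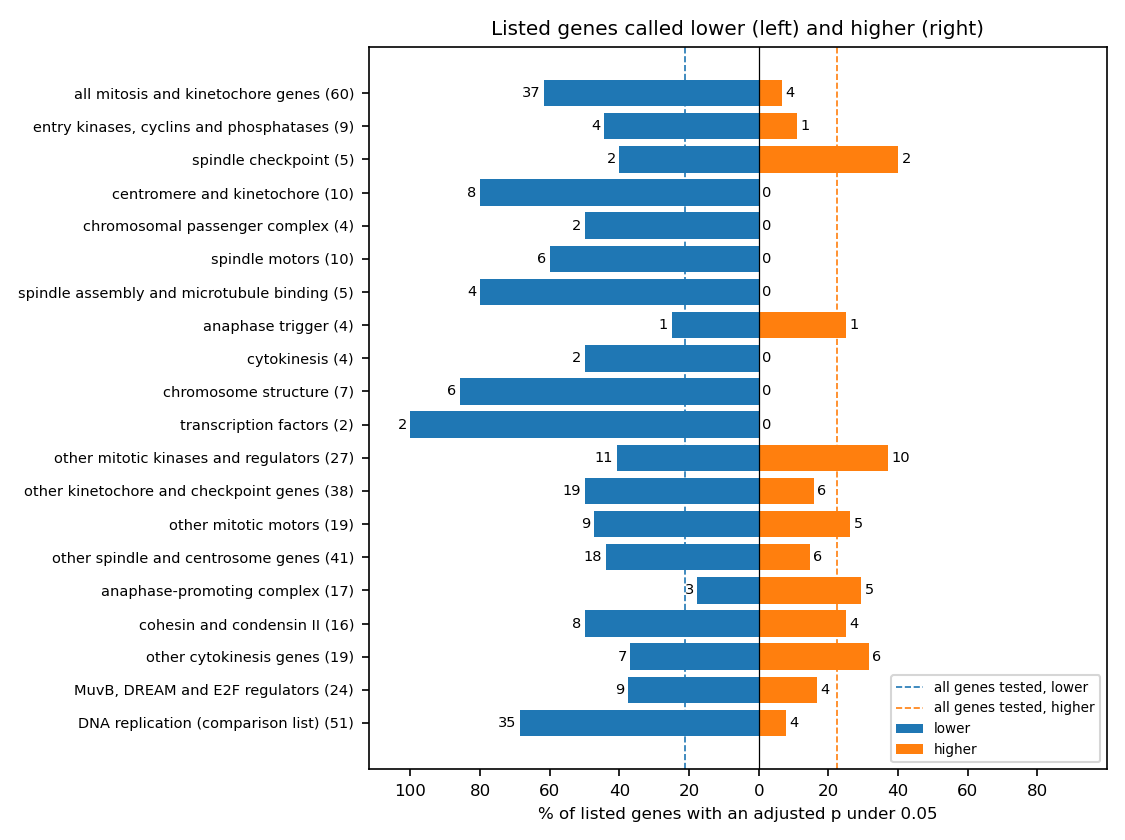
Percent of the listed genes (x axis) called lower (left, blue) and higher (right, orange) at an adjusted p under 0.05 for all mitosis and kinetochore genes, their 10 role groups, 8 further lists and a DNA replication list; bar ends give counts, list sizes are in brackets and dashed lines mark 21.1% lower and 22.4% higher among all genes tested. Among the role groups of the 60 members, only the entry, spindle checkpoint and anaphase trigger groups have a higher bar. The further lists of kinetochore genes and motors hold 6 and 5 higher genes.

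A list of 51 DNA replication genes, which shares no gene with the mitotic members, had 35 lower (68.6%) and 4 higher genes (7.84%) in the authors' deposited table, beside 21.1% and 22.4% of all genes tested. Its median log2 fold change was −0.71, beside −0.54 for the mitotic members, and 13 of 51 replication genes (25.5%) against 5 of 60 mitotic members (8.33%) were lower by 2-fold or more, beside 7.43% of all genes tested. GINS4 (−1.92, SE 0.18) and GINS1 (−1.74, SE 0.10), subunits of the replicative helicase, and the thymidine kinase TK1 (−1.45, SE 0.10) had the most negative values in the authors' deposited table among those with mean normalized counts from 100 upward. DBF4 (0.76, SE 0.11), CDC25A (0.52, SE 0.11) and ORC4 (0.31, SE 0.11), which act before or at origin firing, were higher there. The difference between the lists was not tested.

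The median number of exons in the gene model was larger for lower than for higher members, and lower genes were also more frequent among many-exon genes of the table as a whole, though the members' share did not rise in every exon class. Gene models were the longest protein-coding transcript of each symbol in GENCODE v29 and were found for all 60 members and for 7310 genes (83.8%) of the authors' deposited table. Lower members had a median of 19 exons, members not listed there 11 and the 4 higher members 6.5. All 4 higher members, AURKA included although its interval holds 0 with centring, had from 5 to 9 exons. Of the 26 members with 19 or more exons 20 were lower, 0 were higher and 6 are outside the table. Of the 13 to 18 exon class 9 members of 12 were lower and 0 were higher. Among all genes of the authors' deposited table with 19 or more exons, 63.1% were lower, against 41.0% of those with 1 to 5 exons. Within the classes of 1 to 5 and 6 to 8 exons, 2 of 6 and 4 of 7 members were lower, while 2 and 1 were higher. In the class of 9 to 12 exons 2 of 9 members were lower, 1 was higher and 6 are not in the table. Over all listed members this is a smaller lower share than in both classes with fewer exons. Against 1 to 5 exons that order rests on the 6 absent members: in the table it was 2 lower to 1 higher, beside 2 to 2. Against 6 to 8 exons the order also held in the table, where that class had 4 lower to 1 higher. The shares given for genes of the authors' deposited table count no absent genes.

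Across the 41 members Spearman's rho between exon number and log2 fold change was −0.43, across the 37 lower members −0.29, and across the 7310 genes −0.15. These are descriptions over genes that share the same libraries. Transcript length differed less, with medians of 3605 bases for lower members, 3858 for higher members and 2797 for members outside the table. The genomic span of lower members had a median of 40.4 kb, that of higher members 13.8 kb and that of members not listed there 18.3 kb. The part of gene structure in the members' changes was not tested.

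**Figure D5:**
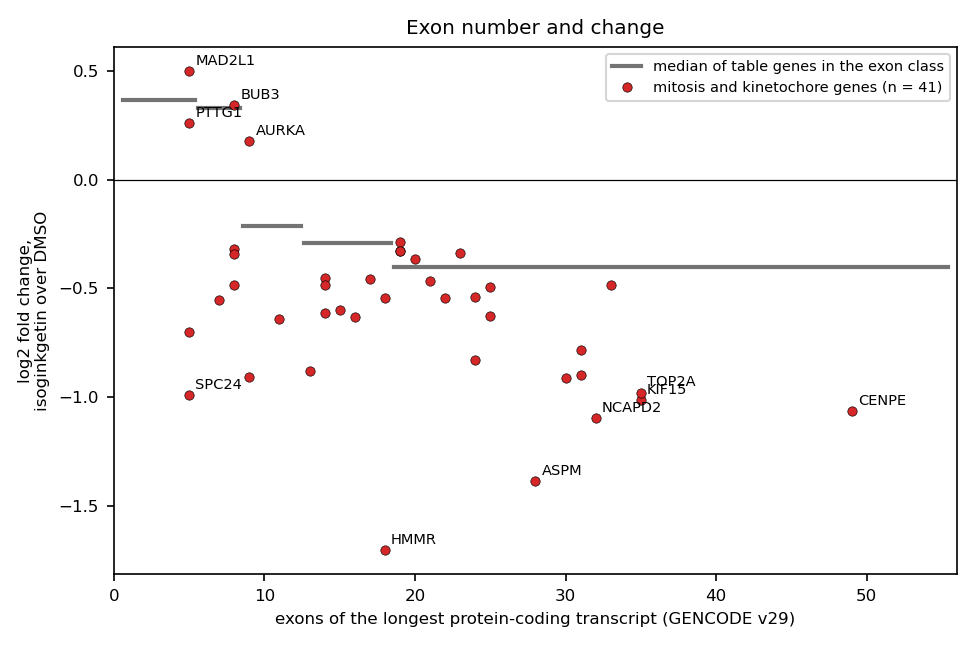
Log2 fold change (y axis, isoginkgetin over DMSO) against the number of exons (x axis) of the 41 mitosis and kinetochore genes in the authors' deposited table; grey lines give the median of all table genes in each exon class. The 4 members above 0 have 5 to 9 exons (AURKA lies at −0.04 after centring on the table's median), and members with 13 or more exons all lie below 0.

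Some values may hold reads of other genes. The library kit does not keep strand, and 19 of the 60 members, 8 of them in the table, have an exon that overlaps an exon of another gene in GENCODE v29. Among these are HMMR, which overlaps the antisense gene HMMR-AS1, MAD2L1 with AC108866.1, and NCAPD2 with MRPL51. ANLN overlaps KIAA0895, which was at 0.44 (SE 0.20) by the authors' deposited table, the opposite direction. NCAPG overlaps LCORL, at 0.41 (SE 0.15), and CDC25C overlaps FAM53C, at 0.42 (SE 0.09), also opposite to the member. FAM53C had a mean normalized count of 1565, against 394 for CDC25C. Pseudogenes named after them exist for 12 members, 8 of them in the table. NCAPD2P1, the pseudogene of NCAPD2, was itself at −1.71 (SE 0.28) by the authors' deposited table. AURKA, BUB3 and NCAPG also have such pseudogenes, PTTG1 has the near-identical copies PTTG2 and PTTG3P, and KIF4A has the near-identical KIF4B. How reads shared between such copies were counted is not given in the sources used here, so these values are uncertain to that extent.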

How the data were processed

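Polyadenylated RNA of 2 DMSO and 2 isoginkgetin libraries was sequenced, with a non-directional kit per the labels' protocols. The submitters' processing notes name the tools featureCounts and STAR (2.7.0) and, without saying what each was for, the builds mm10 and hg19. The authors deposited 1 table of their own comparison, with column names as DESeq2 writes them, per the file headers. Its mean normalized count is a signal averaged by the authors over the libraries. Its log2 fold change and SE are the authors' own and on the log2 scale. The size of the change divided by the SE was 0.987 times (median over members) the normal deviate of the deposited p-value, so the estimates look slightly shrunken. The adjusted p-values imply that 20024 genes were tested.

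Members were matched by symbol, and other lists also by older symbols. Computed here were counts, medians, 95% normal intervals from the SE, differences between genes, motif matches and gene models (pandas 2.3.3, scipy 1.17.1). The motif search and the recovery of the number tested were checked on simulated data. No test of a list was run. The members, roles and lists were chosen with earlier results of these data known. Every member in the table is named. Of each other list, up to 3 genes per direction with the largest absolute change, among those with mean normalized counts from 100 upward, are named. RefSeq promoter coordinates are of GRCh38.p14, and no coordinate comes from the authors' files.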

Additional observations from a re-analysis of the deposited data

How the results depend on the processing

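No paired analysis was possible because the table used here gives no values per library; fits with other scalings and leave-one-out fits could not be run for the same reason. All other alternatives were recomputed from the authors' deposited table. At an adjusted p under 0.001 the members kept 35 lower calls and 2 higher ones, AURKA, PTTG1, SPC25 and DLGAP5 dropping out. With Bonferroni 26 were lower and 2 higher, with 2 lower entry genes and 3 lower kinetochore genes left. At 1.5-fold or more 19 members were lower and 0 higher (median −0.90), with 2 entry genes, 4 kinetochore genes, 3 motors and 1 cytokinesis gene lower. At 2-fold or more 5 were lower and 0 higher (median −1.10 over those left), with 0 entry genes, 1 kinetochore gene, 1 motor and 0 cytokinesis genes. These losses follow from stricter limits on the same values. A minimum mean normalized count of 100 removed no member. Centring on the table's median, a shift of 0.21, moved the members' median to −0.76 and AURKA to −0.036. The other 40 members kept their sign, PTTG1 only at 0.05, and the intervals of AURKA and PTTG1 held 0. With centring, added after the data were seen for this count, 12 members instead of 5 were lower by 2-fold or more. Precision was lowest for genes with few reads, with an SE of 0.17 for CENPM against 0.05 for MKI67.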
